A study of Mus musculus with 35 samples.

Results

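At 3 weeks post-injury (wpi), the brains of injured mice that had received phosphate-buffered saline (PBS) were compared with those of uninjured sham mice, to describe what remained of the response to injury. The comparison was defined by the sample labels and took 9 of the 35 samples of the series, 4 in the PBS group and 5 in Sham. All were C57BL/6NCrl mice, male and 8 to 9 weeks old at the time of the procedures. The PBS mice had a closed head injury, an impact delivered over the intact skull, and on day 5 an injection of PBS into the left hippocampus. The sham mice went through the procedure without the impact and are labelled as untreated, with no injection, so impact and needle cannot be told apart here. Of the sham mice, 2 were collected in week 1 (replicates 0 and 1) and 3 in week 3 (replicates 2, 3 and 4). A further PBS mouse at 3 wpi was excluded by the authors and was not analysed here, and 5 PBS mice at 1 wpi served as the earlier time point. RNA was taken from a block of left hemisphere around the injection site, labelled left cortex, and 1 library was sequenced per mouse. Libraries of the 9 mice held between 30515434 and 41554322 estimated counts, and levels are given as CPM, counts scaled to the library total. The detection limit was set at 3 counts, which is 0.0722 to 0.0983 CPM and covers counting error only.

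After a head injury, microglia, the resident immune cells of the brain, take up debris and can switch on a programme of phagocytic and lipid-handling genes that is known as the disease-associated state. Astrocytes become reactive and make more of the filament protein GFAP, and complement proteins tag debris and synapses for removal. Neurons respond to electrical activity with immediate early genes, a set of transcription factors and synaptic proteins that are switched on within minutes.

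The 9 libraries fell into separate sets that did not follow injury. Along the first principal component, which held 40.8% of the variance of the 2000 most variable genes, replicates 0 and 1 of both groups lay apart from the other 5 mice. Genes of hypothalamus and of midbrain and hindbrain, listed after this was seen, gave the same split. Pmch, a neuropeptide gene of the lateral hypothalamus, was at 0.248, 0.328, 73.5 and 81.5 CPM in PBS replicates 0 to 3 and at 0.258, 0.344, 38.7, 77.2 and 36.8 CPM in Sham replicates 0 to 4. Slc6a3, the dopamine transporter of midbrain neurons, was at 46.3, 15.3, 0.627 and 0.561 CPM in PBS and at 40.1, 43.0, 0.134, 0.557 and 0.247 CPM in Sham. Replicates 0 and 1 of each group thus carried midbrain RNA and hardly any hypothalamic RNA, and the other 5 mice the reverse. The libraries therefore held more than the labelled cortex, although markers of cortical layers were present in every mouse, with Tbr1, a transcription factor of deep layers, between 89.5 and 118 CPM. The mean log2 CPM over 14 striatum markers, with defining members such as Drd1 and Drd2, was 3.25, 2.66, 3.97 and 4.38 in PBS and 2.66, 2.49, 4.73, 4.87 and 5.00 in Sham. All 14 had a negative log2 fold change, with a median of -0.63 (-0.41 without Sham replicate 4), and 0 of them had an unadjusted p under 0.05 (edgeR quasi-likelihood test and DESeq2). Of all genes, 51.4% had a positive log2 fold change. These 2 sets of mice, below called the midbrain set (2 PBS, 2 Sham) and the hypothalamus set (2 PBS, 3 Sham), are given beside some of the results. Values without them are pooled over both sets.

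At 3 wpi, 3 genes differed between PBS and Sham at an adjusted p under 0.05, which is 0.0175% of the 17131 genes tested (edgeR quasi-likelihood test). Complement component C4b and the immune receptor Ly9 were higher (0.0117% of genes were called in that direction) and the prohormone convertase Pcsk1 was lower (0.00584%). At an unadjusted p under 0.05, 508 genes (2.97%) were higher and 394 (2.3%) were lower, and the median log2 fold change of all genes was 0.00. The number of calls depended on the fit: a quasi-likelihood fit without robust moderation of the spread called 5 genes, adding the astrocyte filament gene Gfap and the integrin gene Itgax, DESeq2 called 13, and a quasi-likelihood fit of only these 2 groups called 0, with 981 genes at an unadjusted p under 0.05. Against the 3 sham mice of week 3 alone, all in the hypothalamus set, 32 genes were called, 23 of them lower, and the median log2 fold change of the midbrain and hindbrain genes was 3.02 in place of 0.23. Leaving out PBS replicate 2, PBS replicate 3, Sham replicate 2 or Sham replicate 3 left 0 calls (686 to 837 genes at an unadjusted p under 0.05), leaving out Sham replicate 1 left 1, and leaving out PBS replicate 1 gave 5. C4b had an adjusted p of 0.0504 to 0.152 without 1 of PBS replicates 2 and 3 and Sham replicates 2 and 3. Ly9 did not pass without any 1 of PBS replicates 2 and 3 or Sham replicates 0 to 3 (adjusted p from 0.0504 to 0.355), and Pcsk1 passed only without Sham replicate 0 among the 9 omissions (otherwise 0.0504 to 0.340).

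C4b (ENSMUSG00000073418, chr17:34728380-34743882 of GRCm38, minus strand) encodes complement C4, which binds covalently to surfaces and leads on to C3. Its level was 67.2, 52.2, 93.1 and 99.7 CPM in PBS replicates 0 to 3 and 31.1, 36.4, 29.3, 26.8 and 41.6 CPM in Sham replicates 0 to 4. Every PBS mouse was above every sham mouse, as held for 208 genes (1.21%). The means were 78.1 ± 22.2 CPM (SD, n = 4) in PBS and 33.0 ± 5.96 CPM (SD, n = 5) in Sham, and the log2 fold change was 1.24 (standard error, SE, 0.20) with an adjusted p of 0.0128. Within the midbrain set the mean log2 CPM was 0.82 higher in PBS and within the hypothalamus set 1.59 higher. C4b has a near-identical neighbour, C4a, for which no value was used here, so reads of the pair could be split. In bulk tissue a change in the number of cells of a type and a change in RNA per cell cannot be told apart, here and in all that follows.

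Ly9 (ENSMUSG00000004707, chr1:171588624-171607410, minus strand) encodes a receptor of the SLAM family, through which immune cells bind each other. It was at 0.606, 0.360, 1.42 and 1.19 CPM in PBS and at 0.172, 0.0738, 0.235, 0.216 and 0.432 CPM in Sham. The groups overlapped, since PBS replicate 1 lay below Sham replicate 4. The log2 fold change was 2.03 (SE 0.35, adjusted p = 0.0161), on counts of 11 to 59 per PBS library and 3 to 14 per sham library. With the replicate block, a term for the number that mice of both groups share, the adjusted p was 0.0463, and with limma-voom it was 0.257.

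Of 10 SLAM family genes, grouped after Ly9 had been seen, 9 including Ly9 passed the filter on low counts. All 9 had a positive log2 fold change, against 51.4% of all genes, with a median of 0.71 (0.46 without PBS replicate 2). An unadjusted p under 0.05 was reached by 5, against 2.97% of all genes in that direction. Slamf9, a receptor of myeloid cells, was at 0.606, 0.491, 0.844 and 0.891 CPM in PBS and between 0.401 and 0.464 CPM in Sham, without overlap (log2 fold change 0.76, adjusted p = 0.718). Cd84, which binds itself on neighbouring cells, had a log2 fold change of 0.40 and Cd48, the ligand of CD244, of 0.77, with adjusted p = 0.803 for both. Within the midbrain set Cd48 was 0.20 higher in PBS and within the hypothalamus set 1.30 higher. The SLAM list mean was 0.52 and 0.81 higher in these sets.

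**Figure D1:**
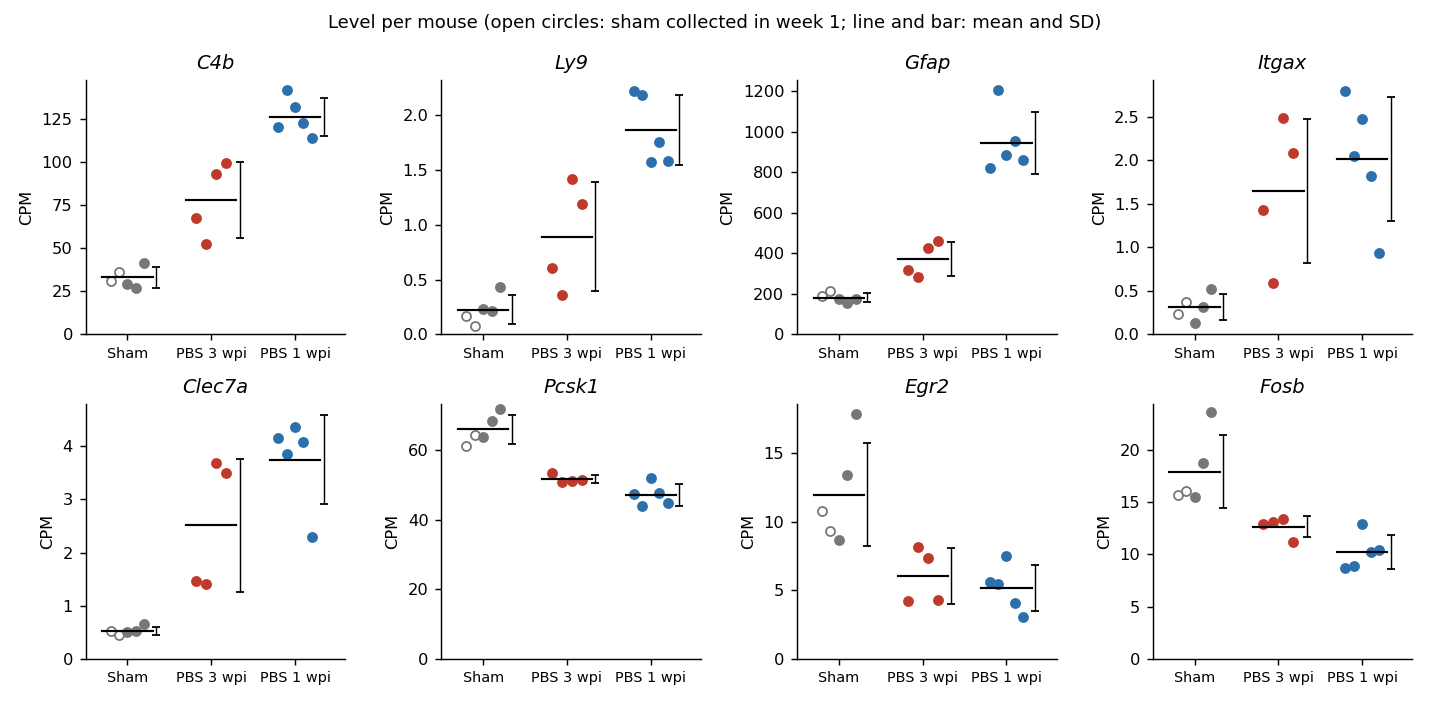
Level of 8 genes in CPM (linear axes from 0) in each mouse of Sham, PBS at 3 wpi and PBS at 1 wpi, with the mean as a line and the SD as a bar beside it; open circles are the 2 sham mice collected in week 1. C4b, Gfap, Itgax and Clec7a of the PBS mice at 3 wpi lie above all sham mice, with replicates 2 and 3 higher than 0 and 1, whereas Pcsk1, Egr2 and Fosb lie below all sham mice.

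Pcsk1 (ENSMUSG00000021587, chr13:75089826-75134861, plus strand) encodes proprotein convertase 1/3, which cuts prohormones and neuropeptide precursors in secretory granules. It was at 53.3, 50.8, 51.1 and 51.4 CPM in PBS and at 61.3, 64.4, 63.9, 68.4 and 71.9 CPM in Sham. Every PBS mouse was below every sham mouse, as held for 133 genes (0.776%). The means were 51.7 ± 1.13 CPM (SD, n = 4) and 66.0 ± 4.17 CPM (SD, n = 5), and the gene fell by 0.35 on the log2 scale (SE 0.06, adjusted p = 0.0341). The mean log2 CPM differed by -0.27 within the midbrain set and by -0.41 within the hypothalamus set. Of the 9 proprotein convertases, all tested, only Pcsk1 had an unadjusted p under 0.05 in either direction. Pcsk2, the other convertase of neuropeptide granules, had a log2 fold change of -0.07 with a 95% confidence interval from -0.23 to 0.09. Among 9 partners of prohormone processing, Vgf, a granule protein that neurotrophins induce, was at 218, 214, 215 and 228 CPM in PBS and between 218 and 305 CPM in Sham, and Cpe, the carboxypeptidase that trims the cut peptides, had a log2 fold change of 0.13. Neither passed the adjusted threshold.

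The promoters of Pcsk1 and of 2 immediate early genes, described further on, hold the complete cyclic AMP response element TGACGTCA, a motif bound by the activity-regulated factor CREB that reads the same on both strands. It was searched for after the data were seen. The 250 bases upstream of the RefSeq transcription start (GRCm38.p6) are shown 5′ to 3′ in the direction of the gene, with the element in capitals, for Pcsk1 (chr13:75089607-75089856, plus strand), Dusp1 (chr17:26508473-26508722, minus strand) and Btg2 (chr1:134079156-134079405, minus strand), because they are the promoters with this element among Pcsk1 and the immediate early genes.
Pcsk1: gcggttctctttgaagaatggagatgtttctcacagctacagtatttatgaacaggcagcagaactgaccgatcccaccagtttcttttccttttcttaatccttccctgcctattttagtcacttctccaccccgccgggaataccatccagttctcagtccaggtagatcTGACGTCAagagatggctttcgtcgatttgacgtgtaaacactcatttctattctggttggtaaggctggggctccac
Dusp1: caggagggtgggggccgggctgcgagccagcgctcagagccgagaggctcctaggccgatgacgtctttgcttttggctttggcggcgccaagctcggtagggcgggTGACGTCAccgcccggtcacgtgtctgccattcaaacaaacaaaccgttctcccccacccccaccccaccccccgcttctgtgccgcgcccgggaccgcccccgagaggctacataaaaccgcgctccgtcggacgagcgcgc
Btg2: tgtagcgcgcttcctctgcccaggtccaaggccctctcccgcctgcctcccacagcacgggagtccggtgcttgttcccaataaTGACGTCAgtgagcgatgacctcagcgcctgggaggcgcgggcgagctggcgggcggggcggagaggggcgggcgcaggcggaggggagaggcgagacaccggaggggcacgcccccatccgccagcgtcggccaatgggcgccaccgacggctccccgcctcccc
Dusp1 had a log2 fold change of -0.33 and Btg2 of -0.21, and neither passed the threshold. The element begins 78 bases before the start of Pcsk1, 143 bases before that of Dusp1, a phosphatase of MAP kinases, and 166 bases before that of Btg2, a growth-arrest gene. It was found in 2 of the 14 immediate early genes with a RefSeq promoter and in 478 of all 27025 genes (1.77%). The serum response element was found in 1 of the 14, Egr2, and in 1.62% of all genes. Among the 15 of 23 leading genes with a promoter, 4 held the interferon-stimulated response element GAAANNGAA on either strand, against 8.18% of all genes, 1 the interferon-gamma site TTCNNNGAA (8.13%), 0 the NF-kB site GGGANTTCC (1.63%), 1 the PU.1 site GAGGAAGT (2.79%) and 2 the TATA box TATAAA (14.3%). The 4 with the interferon-stimulated element were Pcsk1, Egr2 and Egr4, all lower in PBS, and Egflam, which was higher. That element was also found in 4 of the 14 immediate early genes, Egr2 and Egr4 among them. In the list of disease-associated microglia, described further on, 5 of the 22 genes with a promoter held it. Motifs were searched on both strands and counted separately, also where they overlap, and these are matches of letters in a window and no more.

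The 20 genes that followed the 3 called ones by p did not pass the threshold, and 6 of them had an adjusted p under 0.1. First among them was Gfap, at 319, 284, 427 and 459 CPM in PBS and 190, 216, 173, 156 and 175 CPM in Sham, without overlap, and its log2 fold change was 1.03 (SE 0.19) at an adjusted p of 0.0504. Within the midbrain set the difference was 0.57 and within the hypothalamus set 1.40. Then came Itgax (CD11c), the integrin that marks a subset of reactive microglia, at 1.43, 0.590, 2.48 and 2.08 CPM in PBS and between 0.134 and 0.525 CPM in Sham (log2 fold change 2.38, adjusted p = 0.0558). S100a4, a calcium-binding protein of motile cells, and Clec7a, the beta-glucan receptor dectin-1, had log2 fold changes of 1.25 and 2.26 (adjusted p = 0.0681 and 0.0848). Cyba, the p22phox subunit of the phagocyte oxidase, and Cst7, an inhibitor of lysosomal cathepsins, had log2 fold changes of 0.75 and 2.54 (adjusted p = 0.0848 and 0.0915), Cst7 being at 0.523, 0.426, 0.868 and 1.29 CPM in PBS and 0.0619 to 0.185 CPM in Sham, where its lowest mouse was under the detection limit. In all 6 the PBS and sham mice did not overlap.

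The remaining 14 had adjusted p-values of 0.131 or more. Those with higher values in PBS were Igfbp5, which binds insulin-like growth factors (log2 fold change 0.32), Hvcn1, the proton channel that serves the oxidase (0.77), Ggta1, a glycosyltransferase (0.58), the receptor Tlr1 (1.05), the prefoldin subunit Pfdn4 (0.20), the uncharacterised 4930539E08Rik (0.30), the matrix protein Egflam (0.36) and the chaperone clusterin, Clu (0.22). Those with lower values were the immediate early genes Egr2, Egr4 and Egr1, the synapse organiser Cbln2 (-0.29), the orphan receptor Gpr3 (-0.57) and the pseudokinase Trib1 (-0.47). Of the 23 leading genes, which were chosen by p on these mice, 18 did not overlap between the groups, against 1.21% of all genes with every PBS mouse above Sham and 0.776% with every PBS mouse below. All 23 had the same sign in both sets of mice, as their selection favours, and 22 of them had the larger difference in the hypothalamus set, which was not tested.

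Microglial genes were described by lists of the disease-associated and the homeostatic state. Of 26 genes of the disease-associated state, all tested, 15 were higher at an unadjusted p under 0.05, against 2.97% of all genes, 0 were lower, 24 had a positive log2 fold change, against 51.4% of all genes, and the median was 0.28. The mean log2 CPM of the list was 4.3, 4.11, 4.77 and 4.60 in PBS and 3.83, 3.94, 3.82, 3.68 and 4.05 in Sham, so that the groups did not overlap. Without PBS replicate 2, 8 of the 26 remained under that p, with a median of 0.25, and 15 and 0.29 resulted with the position score, the difference between the hypothalamus and the midbrain and hindbrain genes, as a covariate. The list mean was 0.32 higher in PBS within the midbrain set and 0.83 within the hypothalamus set.

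The members differed widely among themselves. Beside Itgax, Clec7a and Cst7, the lipid receptor Trem2 was at 6.53, 8.52, 8.99 and 9.54 CPM in PBS and 4.36 to 7.41 CPM in Sham (log2 fold change 0.53), and its adaptor Tyrobp had a log2 fold change of 0.51. The lipid carrier Apoe was higher in every PBS mouse, with means of 1337 ± 160 CPM (SD, n = 4) and 1060 ± 48.7 CPM (SD, n = 5), a log2 fold change of 0.33. Axl, a receptor for dying cells, also did not overlap, with a log2 fold change of 0.19. For other members PBS replicate 2 stood apart: lysozyme Lyz2 was at 9.12, 8.62, 51.0 and 15.7 CPM and Gpnmb, a glycoprotein of lipid-laden phagocytes, at 3.42, 4.00, 34.2 and 7.46 CPM in PBS, against at most 10 and 3.89 CPM in Sham. Without this mouse the log2 fold change of Lyz2 was 0.88 in place of 1.82 and that of Gpnmb 0.66 in place of 2.00. None of the genes in this paragraph passed the adjusted threshold.

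Homeostatic microglial genes showed less. Of 15, 13 had a positive log2 fold change, against 51.4% of all genes, and the median was 0.12. An unadjusted p under 0.05 in the higher direction was reached by 1, the fractalkine receptor Cx3cr1 (log2 fold change 0.21). Over all genes, 2.97% were higher at that p. Of 18 myeloid cell markers, 5 were higher at that p, with a median of 0.29 (0.44 without Sham replicate 4), among them the lysosomal protein Cd68 (0.62) and the lectin Lgals3 (1.75, and 1.02 without PBS replicate 2). A positive log2 fold change was seen in 15 of the 18, against 51.4% of all genes. The 3 negative ones were Mrc1 (-0.06), Cd163 (-0.09) and Lyve1 (-0.47), and Itgam (0.03) and Adgre1 (0.07) were near 0. Lgals3 was at 0.882, 0.622, 3.83 and 1.91 CPM in PBS and overlapped with Sham, which reached 0.928 CPM. Sham replicate 4 was the highest sham mouse for Cd68, at 7.69 CPM, and for the complement gene C1qa, at 39.8 CPM, which lies within the PBS range of 31.0 to 42.4 CPM. Neutrophil and B cell lists had 0 members at an unadjusted p under 0.05 in either direction (edgeR quasi-likelihood test and DESeq2), of 9 and 7 tested. Of 23 T cell genes 2 did, Cd2 and the T cell receptor constant gene Trbc1, and both were near the detection limit, at 0.0328 to 0.110 and 0.0551 to 0.330 CPM in PBS.

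**Figure D2:**
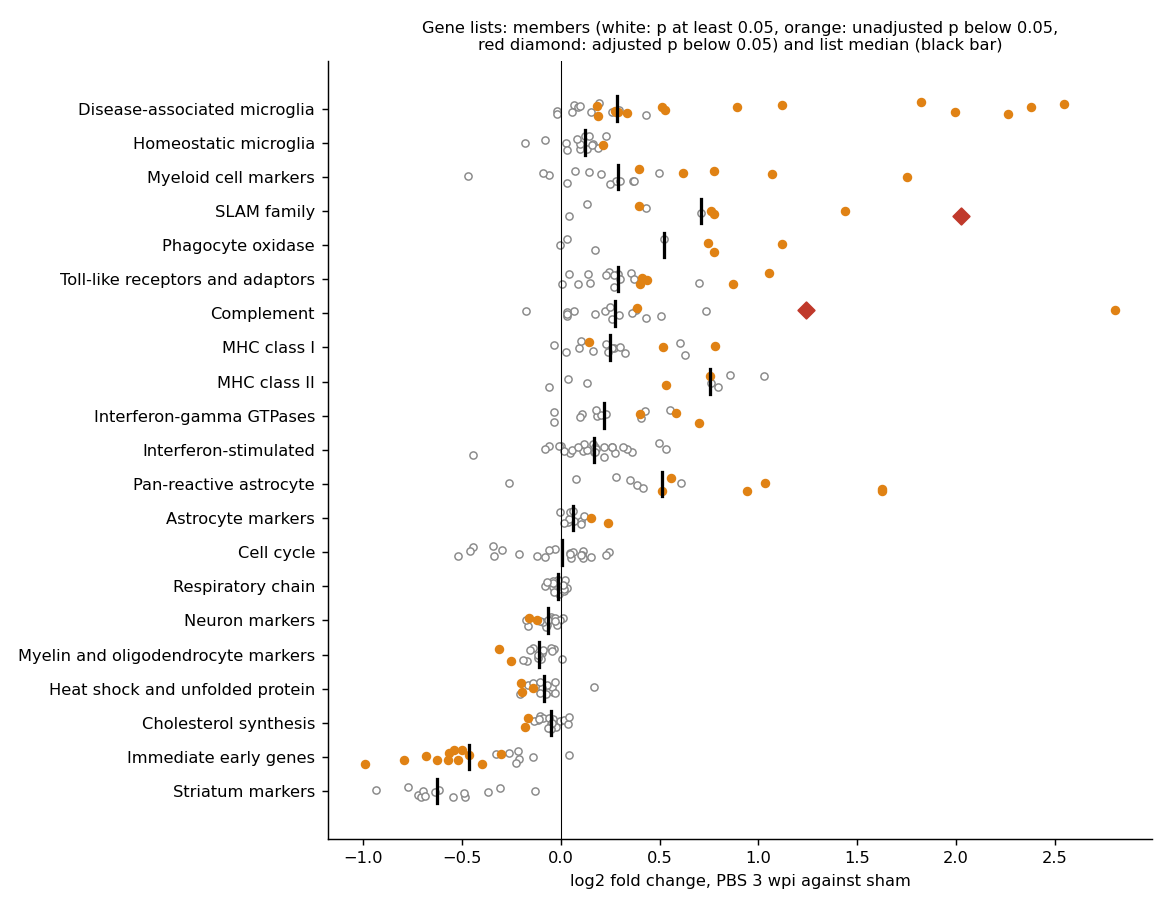
Log2 fold change of PBS at 3 wpi against Sham for each tested member of 21 gene lists, with the list median as a black bar; orange marks an unadjusted p under 0.05 and a red diamond an adjusted p under 0.05. Microglial, complement and reactive astrocyte lists reach to the right with long tails, the immediate early genes lie to the left of 0 with a median of -0.47, and the respiratory chain stays at -0.01.

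The phagocyte oxidase makes superoxide at the membrane of immune cells. Of its 7 genes, grouped after Cyba was seen, Cyba, Hvcn1 and Cybb, the catalytic subunit (log2 fold change 1.12), were higher at an unadjusted p under 0.05. Of all genes, 2.97% were. Cyba and Hvcn1 are leading genes chosen by p, and Cybb is also in the disease-associated list. The median was 0.52 (0.30 without PBS replicate 2). Within the midbrain set Cybb was 0.31 higher in PBS and within the hypothalamus set 1.70 higher. The oxidase list mean was 0.31 and 0.64 higher in these sets. All 19 Toll-like receptors and adaptors, which sense microbial products and debris, had a positive log2 fold change, against 51.4% of all genes, with a median of 0.29. An unadjusted p under 0.05 was reached by 5, against 2.97% of all genes in that direction. Tlr1 was at 0.909, 0.655, 0.747 and 1.06 CPM in PBS and at most 0.587 CPM in Sham, Tlr9, a sensor of DNA in endosomes, was at 2.85 to 3.00 CPM against 1.82 to 2.47 CPM, and Tlr2 had a log2 fold change of 0.87 with overlap. Of the 10 S100 proteins, grouped after S100a4 was seen, S100a6 (0.44) and S100a1 (0.24) did not overlap either.

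Complement genes beyond C4b did not pass the adjusted threshold. Of 18 tested complement genes, 3 were higher at an unadjusted p under 0.05, C4b among them, against 2.97% of all genes. A positive log2 fold change was seen in 17, against 51.4% of all genes, and the median was 0.28. C3, on which all complement pathways converge, was at 2.51, 1.18, 36 and 6.57 CPM in PBS and 1.03 to 2.35 CPM in Sham, with a log2 fold change of 2.81 (adjusted p = 0.515) that was 1.00 without PBS replicate 2. Its mean log2 CPM was 0.27 higher in PBS within the midbrain set and 3.11 higher within the hypothalamus set. The complement list mean was 0.26 and 0.54 higher in these sets. C1qa, a chain of the first component, had a log2 fold change of 0.38 and overlapped. In the protein family of C3 and C4, the protease inhibitor A2m had a log2 fold change of 1.08 (0.51 without PBS replicate 2) and the membrane protein Cd109 of 0.65, without passing the adjusted threshold.

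Antigen presentation genes were higher by their medians. The 9 MHC class II genes had a median log2 fold change of 0.76, with 2 higher at an unadjusted p under 0.05. Over all genes that share was 2.97%, also for the lists that follow. H2-DMb1, a chaperone of peptide loading, was at 1.54, 0.983, 1.57 and 1.88 CPM in PBS and 0.738 to 1.14 CPM in Sham (log2 fold change 0.76, adjusted p = 0.624). H2-Aa, a chain of the presenting molecule itself, had a log2 fold change of 1.03 with a 95% confidence interval from -0.01 to 2.07, and the invariant chain Cd74 one of 0.76 from -0.27 to 1.79. Within the midbrain set H2-Aa was 0.16 higher in PBS and within the hypothalamus set 1.64 higher. The MHC class II list mean was 0.27 and 0.69 higher in these sets. Of 16 MHC class I genes, 3 were higher at that p and the median was 0.25. Nlrc5, the transactivator of that class, did not overlap between the groups, with a log2 fold change of 0.78. Interferon-gamma GTPases, which attack vacuoles inside cells, had 3 of 14 at an unadjusted p under 0.05, led by Gbp6 (0.70) and Irgm2 (0.40), both without overlap. Of 27 interferon-stimulated genes, 0 had an unadjusted p under 0.05 (edgeR quasi-likelihood test and DESeq2) and the median was 0.17 (0.11 without PBS replicate 0), beside 0.22 for the GTPases. By sign the 2 lists were alike: 23 of the 27 and 12 of the 14 GTPases had a positive log2 fold change, against 51.4% of all genes.

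Reactive astrocyte genes were also higher in part. Of 13 pan-reactive genes, 6 were higher at an unadjusted p under 0.05, against 2.97% of all genes. A positive log2 fold change was seen in 12, against 51.4% of all genes, and the median was 0.51. The protease inhibitor Serpina3n was at 23.4, 26.2, 46.8 and 32.2 CPM in PBS and 13.9 to 20.6 CPM in Sham, without overlap (log2 fold change 0.94, adjusted p = 0.689). Its difference was 0.36 within the midbrain set and 1.37 within the hypothalamus set. The pan-reactive list mean differed by 0.27 and 0.85 in these sets. Vimentin, Vim, the other filament of reactive astrocytes, had a log2 fold change of 0.56 and overlapped, since Sham replicate 4 reached 39.2 CPM. The interferon-inducible chemokine Cxcl10 was at 0.220, 0.295, 0.675 and 0.165 CPM in PBS and 0.0738 to 0.172 CPM in Sham, with overlap and near the detection limit. The count was 2 without PBS replicate 2 and 3 with limma-voom. Of the genes linked to the A1 and A2 reactive states, 2 of 12 and 2 of 11 were higher at that p, with medians of 0.26 and 0.19 (0.12 without PBS replicate 2 for A2). The 12 general astrocyte markers, by comparison, had a median of 0.06. Genes of growth factors held 2 higher and 2 lower at an unadjusted p under 0.05 of 21, against 2.97% and 2.3% of all genes. Among them were Hgf, at 5.77 to 6.01 CPM in PBS against 4.35 to 5.44 CPM in Sham, and Vegfa, at 60.2 to 65.7 CPM against 66.0 to 82.5 CPM.

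Immediate early genes were lower. Of 19, all tested, 12 had an unadjusted p under 0.05 in the lower direction, against 2.3% of all genes, and 0 in the higher. A negative log2 fold change was seen in 18, where 51.4% of all genes had a positive one, and the median was -0.47. None passed the adjusted threshold. The mean log2 CPM of the list was 5.11, 5.21, 5.16 and 4.79 in PBS and 5.47, 5.29, 5.36, 5.57 and 5.83 in Sham, without overlap, and Sham replicate 4 was the highest. Egr2, a zinc finger factor, was at 4.24, 8.12, 7.38 and 4.29 CPM in PBS and 10.7, 9.28, 8.62, 13.4 and 17.8 CPM in Sham (log2 fold change -0.99, adjusted p = 0.261). Its relative Egr4 was at 21.1, 27.1, 25 and 17.1 CPM in PBS and between 29.6 and 40.5 CPM in Sham (-0.52, adjusted p = 0.387). Both did not overlap, nor did Egr3 (-0.54), Fosb, a subunit of the factor AP-1 (-0.50), or the nuclear receptor Nr4a1 (-0.68). Egr1 (-0.57), Arc, which acts in synapses (-0.79), Fos (-0.57) and Junb (-0.31, and -0.16 without PBS replicate 3) overlapped.

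The size of the difference was not the same in both sets of mice, which was not tested. The list mean differed by -0.22 within the midbrain set and by -0.61 within the hypothalamus set. Arc was at 148 and 120 CPM in the 2 sham mice of week 1 and at 188, 254 and 326 CPM in those of week 3, with 106, 124, 132 and 115 CPM in PBS. Against the week 3 sham mice alone, Egr1, Egr2, Egr3, Arc and the synaptic pentraxin Nptx2 were called lower, and the list median was -0.58, but those 3 mice all belong to the hypothalamus set. With only these 2 groups and the replicate number as a block, 7 of the 19 had an unadjusted p under 0.05 and the median was -0.33, and with the position score as a covariate 13 did, at -0.39. In the fit with the block, Sham replicate 4 has no PBS mouse of its number and does not count in the difference. It is the highest sham mouse of this list, so the block and its removal cannot be told apart. The striatum markers differed by 0.38 in their mean within the midbrain set and by -0.69 within the hypothalamus set. With their score as a covariate 14 of 19 had an unadjusted p under 0.05, with a median of -0.42.

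**Figure D3:**
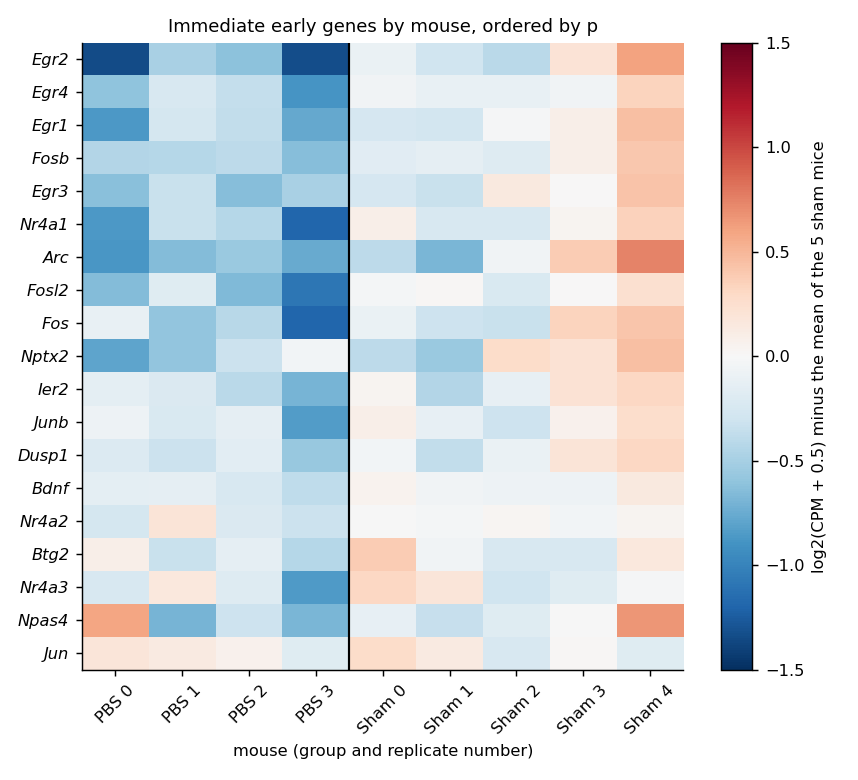
Level of the 19 immediate early genes in each of the 9 mice, as log2(CPM + 0.5) minus the mean of the 5 sham mice (colour bar, blue lower and red higher), with genes ordered by p. The 4 PBS columns are blue or near white for the upper 12 genes, deepest in replicates 0 and 3, while Sham replicate 4 is red for most genes and Jun, at the bottom, has no clear side.

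For other groups the medians were smaller, and many of them moved by over 1.5 times or changed sign when 1 mouse was left out. Neuron markers had a median log2 fold change of -0.07 and myelin and oligodendrocyte markers of -0.11. In each, 2 of 16 were lower at an unadjusted p under 0.05, against 2.3% of all genes. For myelin these were the proteins Mal (-0.31) and Mobp (-0.25, and -0.17 without PBS replicate 1). Of 19 genes of cholesterol synthesis, 16 had a negative log2 fold change with a median of -0.05, where 51.4% of all genes had a positive one. Of 18 heat shock and unfolded protein genes, 17 were negative with a median of -0.09, led by the chaperone Hsph1 (-0.20). The 22 cell cycle genes had a median of 0.01 and the 22 respiratory chain genes of -0.01, with 0 members of either at an unadjusted p under 0.05 (edgeR quasi-likelihood test; DESeq2 gave 1 cell cycle gene). Lists of other cell types had medians of -0.03 for endothelial cells and pericytes (16 tested), 0.10 for fibroblasts and meninges (12), -0.04 for oligodendrocyte precursors (12) and 0.14 for choroid plexus and ependyma (14). The choroid plexus median ran from -0.06 without PBS replicate 3 to 0.44 without PBS replicate 1, and that of fibroblasts and meninges from -0.05 without PBS replicate 0 to 0.24 without Sham replicate 1. The median was 0.43 for 21 chemokines and receptors, with 4 higher and 1 lower at an unadjusted p under 0.05, 0.16 for 21 cytokines and receptors (3 higher), 0.12 for 20 lysosomal genes (4 higher) and 0.13 for 18 genes of lipid handling (3 higher). Over all genes, 2.97% were higher and 2.3% lower at that p. Matrix genes had a median of 0.15, and the protease Mmp3 was detected above the limit in 1 of the 9 mice, PBS replicate 2, at 1.16 CPM.

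Between 1 and 3 wpi the PBS groups differed in 936 genes (5.46% of those tested), of which 832 (4.86%) were lower and 104 (0.607%) higher at 3 wpi. The sets of mice were not balanced between the weeks. The mean log2 CPM of the hypothalamus genes was 2.52, 2.75, 1.36, 2.41 and -1.70 in PBS replicates 0 to 4 at 1 wpi. At 3 wpi it was -1.53, -2.27, 2.48 and 2.93 in PBS replicates 0 to 3. The weeks were not compared within each set, so a change with time was not tested apart from this imbalance. Of the 23 leading genes, 10 were called, 9 of them lower at 3 wpi, in a comparison that uses the same 4 PBS mice as the one that chose them. C4b had a mean of 126 ± 11 CPM (SD, n = 5) at 1 wpi, and fell by 0.69 on the log2 scale to 3 wpi (adjusted p = 0.0299). Ly9 fell by 1.04 (adjusted p = 0.0164) from 1.86 CPM, and Gfap fell by 1.34 (adjusted p = 5.9e-05) from 945 CPM. S100a4, Cyba, Cst7, Hvcn1, Ggta1 and Tlr1 fell as well, by 0.66 to 1.28. For Itgax and Clec7a the differences of -0.27 and -0.56 were not called (adjusted p = 0.804 and 0.493), with 95% confidence intervals from -1.04 to 0.50 and -1.32 to 0.20. Of the 7 lower genes among the 23, 0 were called between the weeks (edgeR quasi-likelihood test; 3 had an unadjusted p under 0.05). Pcsk1 had a mean of 47.2 CPM at 1 wpi and a difference of 0.13 (adjusted p = 0.304), and Egr2 one of 0.23 (adjusted p = 0.713).

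At 1 wpi, 2344 genes (13.7%) differed from Sham, 8.7% of all genes being higher and 4.99% lower, and the lists can be set side by side at both times against the same 5 sham mice. The imbalance of the sets between the weeks holds here as well. Over all genes, 4.86% were called lower at 3 than at 1 wpi. Cell cycle genes had a median log2 fold change of 1.13 at 1 wpi and 0.01 at 3 wpi, and 20 of 22 were called lower at 3 than at 1 wpi. Interferon-stimulated genes had medians of 1.2 and 0.17, with 22 of 27 called lower at 3 wpi. Pan-reactive astrocyte genes had medians of 2.13 and 0.51 (9 of 13 called lower), myeloid markers 1.28 and 0.29 (12 of 18) and disease-associated microglia 0.93 and 0.28 (13 of 26). MHC class II genes had medians of 1.21 and 0.76, with 0 of 9 called between the weeks (edgeR quasi-likelihood test; 2 lower at an unadjusted p under 0.05), and immediate early genes -0.61 and -0.47, with 0 of 19 called and 4 higher at 3 than at 1 wpi at an unadjusted p under 0.05.

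**Figure D4:**
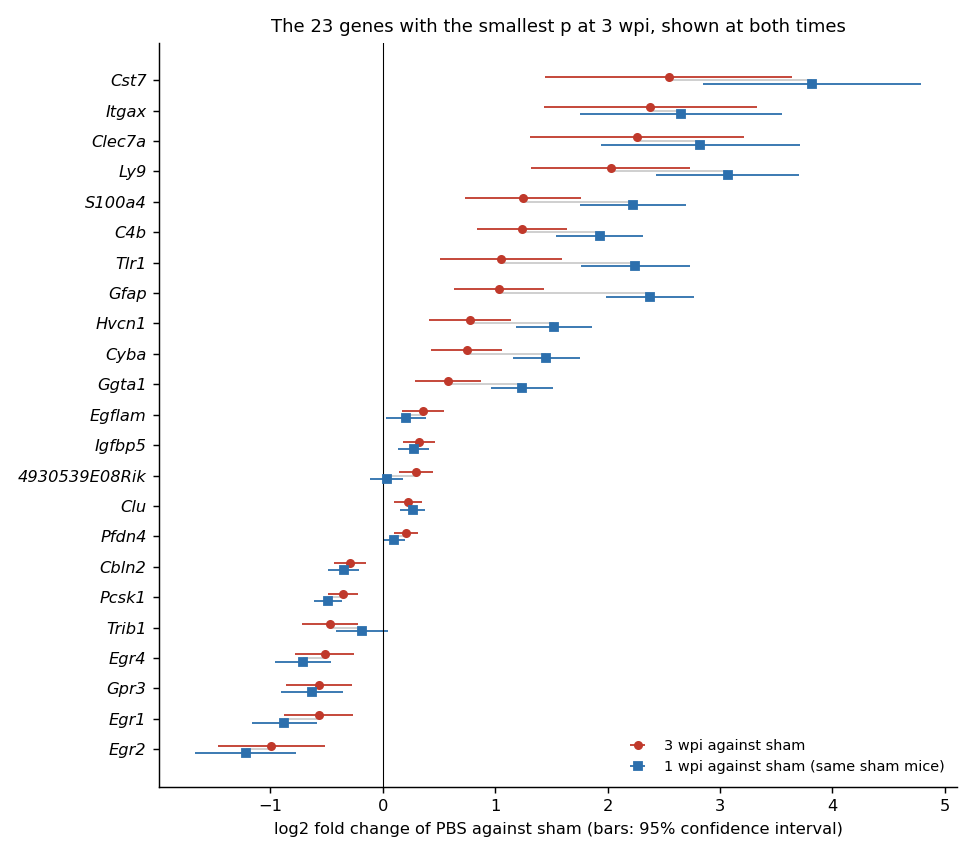
Log2 fold change of PBS against Sham with its 95% confidence interval for the 23 leading genes, at 3 wpi (red circles) and 1 wpi (blue squares), both against the same 5 sham mice. Most of the higher genes lie nearer to 0 at 3 wpi than at 1 wpi. Itgax, Igfbp5, Clu and the lower genes Pcsk1, Cbln2, Gpr3 and Egr2 are among those with overlapping intervals at both times.

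**Figure D5:**
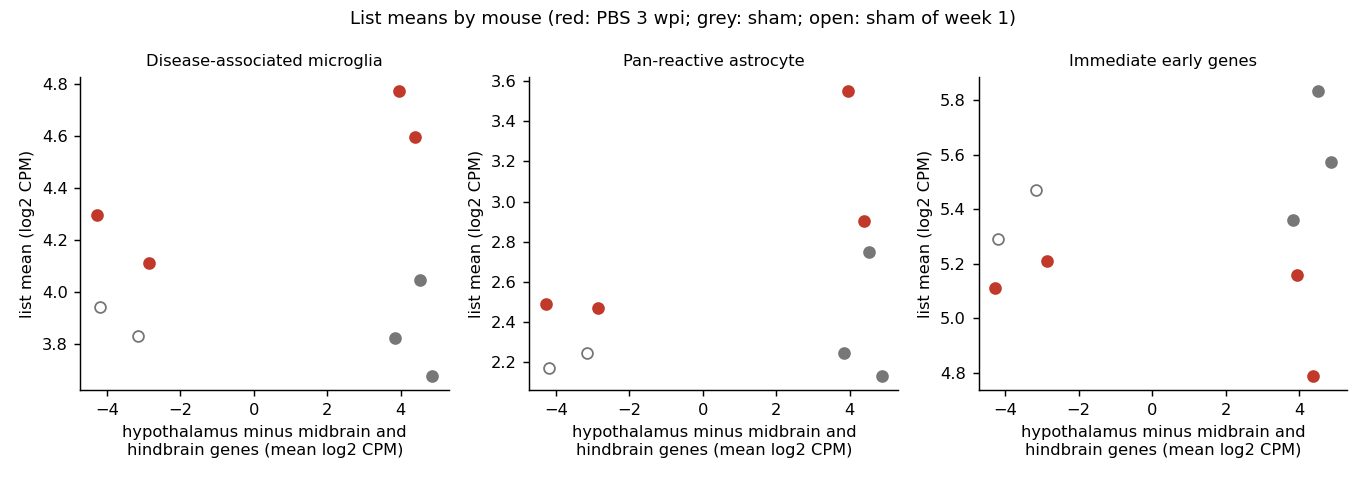
Mean log2 CPM of 3 gene lists in each of the 9 mice against the position score, the mean log2 CPM of hypothalamus genes minus that of midbrain and hindbrain genes; red is PBS at 3 wpi, grey is Sham, open grey is Sham of week 1. The mice form separate sets at scores below -2 and above 3, and within each set the PBS mice are higher than Sham for disease-associated microglia and lower for immediate early genes.

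Injured mice treated with mesenchymal stromal cells (MSCs) or with IL-4 MSCs, which carry IL-4 mRNA, were sampled at 3 wpi as well, 5 mice each. Against PBS, 0 of the 23 leading genes were called with MSCs (edgeR quasi-likelihood test; 0.0759% of all genes were), with 7 at an unadjusted p under 0.05. With IL-4 MSCs 1 of 23 was called (2.9% of all genes were), Egflam, which was lower by a log2 fold change of -0.34 (adjusted p = 0.0403). The IL-4 MSC mice also differed from PBS in genes of brain regions. Their 14 striatum markers had a median log2 fold change of 2.12, with 11 called higher. The 10 midbrain and hindbrain genes had a median of -2.51, and all were negative. Treatment and the regions held in the tissue therefore cannot be told apart in this comparison. For C4b the difference from PBS was 0.64 with MSCs (95% confidence interval from 0.25 to 1.04, adjusted p = 0.522) and 0.37 with IL-4 MSCs (-0.02 to 0.77, adjusted p = 0.334). For Pcsk1 the differences were 0.03 (-0.11 to 0.16) and -0.08 (-0.21 to 0.05).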

How the data were processed

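RNA of 35 mice was sequenced as paired reads, and 9 libraries (4 PBS at 3 wpi, 5 Sham) were compared here. The authors trimmed reads with cutadapt 2.4 and quantified them with kallisto 0.46 against GENCODE vM23 (GRCm38), and they tested them with sleuth 0.30. They deposited estimated counts and TPM values per gene, the TPM being scaled for gene length and library. The deposited columns of the authors' own comparisons (p-values, q-values and fold changes) were not used. The estimated counts were rounded to whole numbers. TPM was used for mean levels in tables only. Tests ran on 34 libraries in 7 groups with 1 fit, leaving out 1 library that the authors excluded.

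Genes with low counts were removed with filterByExpr of edgeR 4.0.16 (17131 of 21203 kept), libraries were scaled by TMM, and the robust quasi-likelihood test was applied (R 4.3.3) with Benjamini-Hochberg adjustment over all genes tested and a threshold of 0.05. CPM are counts scaled to the TMM-adjusted library total, and list means used log2 CPM with a prior count of 2. Alternatives used limma 3.58.1 (voom) and DESeq2 1.42.0, other scaling, no filter, other samples, covariates and each mouse left out. The scripts were tested on simulated data. Replicates gave correlations of 0.985 to 0.994 over 16 pairs within groups and differed by more than sampling noise. Where nothing states separate handling, p-values measure the spread between these mice.

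The genes named were all called genes, the next 20 by p, up to 4 members of each list by p and up to 3 written first in it, and relatives of called genes. Members and lists were chosen with earlier results of these data known. The families of called and leading genes, the lists of hypothalamus and of midbrain and hindbrain genes, the 2 promoter motifs for cyclic AMP and serum response and the fits with the position score, without robust moderation, and with the block in the 2 groups alone were added after the data were seen. Gene coordinates came from GENCODE vM21 (GRCm38) and promoters from RefSeq. Replicate numbers were taken from the sample titles, which do not say what a number marks. Deviations of same-numbered PBS and sham mice correlated at 0.119 to 0.411 (4 pairs), against -0.462 to 0.371 for different numbers (16 pairs). All pairs within the midbrain or the hypothalamus set correlated positively, and all pairs across the sets negatively. PBS replicate 0 reached 0.371 with Sham replicate 1, and PBS replicate 2 had 0.119 with Sham replicate 2 and 0.295 with Sham replicate 3. The values thus follow the sets and do not show that the numbers pair mice. The block was used in alternative fits only.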

Additional observations from a re-analysis of the deposited data

Results flagged for a closer look

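Among 156 groups of 4 or 5 mice examined for a single mouse far from the others, 13 held one, where about 5% of such groups are expected to by chance. PBS replicate 2 was far above the other PBS mice for Lyz2 (51.0 CPM), Gpnmb (34.2 CPM), C3 (36 CPM) and Mmp3 (1.16 CPM), and below them for Vegfa (60.2 CPM). PBS replicate 3 was the highest for Cbln2 (31.8 CPM). Sham replicate 4 was the highest sham mouse for Egr4 (40.5 CPM), Cd68 (7.69 CPM), Vim (39.2 CPM), C1qa (39.8 CPM), Trbc1 (0.0926 CPM, near the detection limit) and the pan-reactive astrocyte list (mean log2 CPM of 2.75). Sham replicate 3 was the highest for Slamf9 (0.464 CPM).

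The difference from Sham was not the same at both times for 936 genes, by the test of PBS at 3 against 1 wpi, and 10 of the 23 leading genes were among them. The midbrain and hypothalamus sets were not balanced between these weeks.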

How the results depend on the processing

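Of the counts of genes called between PBS at 3 wpi and Sham (3, with 2 higher and 1 lower), the count was 9 (8 higher) at an adjusted p under 0.1, 13 (11 higher, 2 lower) with DESeq2, 5 (4 higher) without robust moderation of the spread, 32 (9 higher, 23 lower) against sham mice of the same week and 0 (0 higher, 0 lower) with only the 2 groups compared, where 981 genes had an unadjusted p under 0.05. With limma-voom 1 was higher, and with a log2 fold change of at least 1 as well 0 were lower. With the replicate block on all libraries 3 were called, and with the block and only the 2 groups 0 (0 higher, 0 lower; 1099 at an unadjusted p under 0.05). In the latter fit Sham replicate 4, which has no PBS mouse of its number, does not count in the difference. The block in all libraries changed no call of the 3 genes. With the position score as a covariate 4 were called, and with it in only the 2 groups 5 (4 higher), where C4b was not among them (adjusted p = 0.284). Leaving out 1 mouse at a time gave 0 to 5 calls, 0 to 5 higher and 0 to 1 lower, and 560 to 1003 calls between 3 and 1 wpi, where 560 and 609 resulted without PBS replicate 1 and PBS replicate 0. The cause was not tested, except that fits of only 2 groups hold fewer samples. Between PBS at 1 wpi and Sham, the count of 2344 stayed between 1586 and 2690 over its alternatives. The log2 fold change of Mmp3 ran from -0.14 to 4.92 over the omissions of 1 mouse, against 4.42 with all, and turned without PBS replicate 2, the only mouse with counts above the limit. No other named gene changed sign. The level that 3 counts give ranged from 0.0722 to 0.0983 CPM between the 9 libraries.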
